A study of Mus musculus with 2 samples.

Results

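The Mir23a cluster on chromosome 8 (Mir23a, Mir27a and Mir24-2) and the Mir23b cluster on chromosome 13 (Mir23b, Mir27b and Mir24-1) are paralogous groups of microRNA (miRNA) genes. The 6 members were chosen by their gene symbols, with no threshold on any value, and 5 of them had a row among the 1973 counted miRNA genes. Mir24-1 had no row and was not analysed here as a gene. The data are small RNA counts from hearts of healthy mouse embryos of strain B6NCrl at day 15.5, with males and females pooled. The single group holds 2 libraries, replicate 1 from a pool of 78 embryos and replicate 2 from a pool of 62. There is no treated or mutant group, so the data give the level of each member in whole embryonic heart, the ratios between members, and how far the pools differed. In whole tissue, more cells of a type and more RNA per cell cannot be told apart.

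miRNAs are short RNAs that guide Argonaute proteins to partly complementary mRNAs, mainly through the seed, bases 2 to 8 counted from the 5′ end. A hairpin precursor is cut into a 5p and a 3p arm, of which one usually accumulates. The hairpins of each Mir23, Mir27 and Mir24 cluster are known to be cut from one primary transcript, and the mouse genome carries this trio in a pair of copies. In the cardiovascular system miR-23 and miR-27 are known for promoting the sprouting of endothelial cells, miR-23a for its part in cardiomyocyte hypertrophy, and miR-24 for effects on survival of endothelial cells and cardiomyocytes.

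The mature arms are shown because the paralogues differ by few bases, and a read that matches both is in no gene count. The sequences are those of RefSeq (GRCm38.p6), written 5′ to 3′ with the seed in capitals. All 6 hairpins and 11 of their 12 arms were in that table. miR-23b-3p was the arm without an entry.
miR-23a-3p: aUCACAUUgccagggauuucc
miR-27a-3p: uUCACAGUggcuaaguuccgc
miR-27b-3p: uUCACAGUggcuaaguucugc
miR-24-3p: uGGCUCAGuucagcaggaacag
miR-24-2-5p: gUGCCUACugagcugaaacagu
miR-24-1-5p: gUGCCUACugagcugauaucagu

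The seeds of miR-23a-3p and miR-27a-3p differ at 1 of 7 bases, U7G, counted from the 5′ end of the arm with the base of miR-23a-3p first. The seed of miR-24-3p is unlike both. Between the paralogues, miR-27a-3p and miR-27b-3p differ at 1 of 21 bases, C19U. They have the same seed, and no other arm in the table had it. The 5p arms of Mir27a and Mir27b differ at 8 of 22 bases, among them the seed position G3A. miR-24-3p is the same in all 22 bases from Mir24-2 and Mir24-1. Over the first 22 bases, miR-24-2-5p and miR-24-1-5p differ at 5 positions, A17U being the nearest to the 5′ end, and their seed is shared.

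The hairpins are shown with the longest stretch common to each paralogous pair in capitals, since a read that lies within the capitals alone matches both genes. Multiply matching reads form a line of their own in the deposited counts.
Mir23a: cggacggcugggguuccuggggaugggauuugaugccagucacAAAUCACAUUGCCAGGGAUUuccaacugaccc
Mir23b: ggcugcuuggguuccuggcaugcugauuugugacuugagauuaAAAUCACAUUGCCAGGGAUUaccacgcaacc
Mir27a: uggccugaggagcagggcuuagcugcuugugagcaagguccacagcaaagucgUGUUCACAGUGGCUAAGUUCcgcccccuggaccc
Mir27b: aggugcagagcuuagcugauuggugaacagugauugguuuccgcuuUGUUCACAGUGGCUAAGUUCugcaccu
Mir24-2: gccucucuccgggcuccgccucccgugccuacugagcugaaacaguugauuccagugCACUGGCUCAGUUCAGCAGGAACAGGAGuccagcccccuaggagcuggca
Mir24-1: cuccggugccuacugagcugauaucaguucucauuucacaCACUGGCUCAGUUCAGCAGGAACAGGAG

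The common stretch is 20 bases for Mir23a and Mir23b, 20 for Mir27a and Mir27b, and 28 for Mir24-2 and Mir24-1. Over a global alignment the pairs were identical in 70.9%, 59.6% and 53.6% of columns. Columns with a gap count as not identical, and the annotated lengths differ most for Mir24-2 and Mir24-1, with 107 and 68 bases. The percentages are therefore not a measure of divergence alone. The common stretch is identical by the way it was chosen, so no comparison with the rest of the hairpin is drawn from it. From its 5′ end, miR-23a-3p shares its first 18 bases with the Mir23b hairpin, and miR-27a-3p shares its first 18 with the Mir27b hairpin. Base 19 is the first that differs, and a further 2 bases follow it in each arm. miR-24-3p has no base that differs, whereas miR-24-2-5p parts from the Mir24-1 hairpin after 16 of its 22 bases. A read of exactly miR-24-3p matches both Mir24 hairpins. Hairpins of the chromosome 8 copy had the higher GC content in each pair, 56% against 48.6% for Mir23, 59.8% against 47.9% for Mir27 and 61.7% against 51.5% for Mir24.

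In GRCm38 (mm10) the chromosome 8 cluster spans 404 bases on the plus strand. Mir23a (ENSMUSG00000065611.1, chr8:84208518-84208592) and Mir27a (ENSMUSG00000065444.1, chr8:84208672-84208758) overlap no other annotated gene. Mir24-2 (ENSMUSG00000065541.1, chr8:84208815-84208921) overlaps the first 2 bases of the lincRNA gene Gm26532 and lies opposite Mir3074-2. The chromosome 13 cluster spans 792 bases on the plus strand, inside the protein-coding gene 2010111I01Rik and opposite an intron of Fancc. Mir23b (ENSMUSG00000065599.1, chr13:63300484-63300557) is in an intron of 2010111I01Rik. Mir27b (ENSMUSG00000065475.1, chr13:63300712-63300784) and Mir24-1 (ENSMUSG00000105904.1, chr13:63301208-63301275) overlap an exon of at least one annotated transcript of that gene. Positions are those of a later annotation release, in which Mir23b, Mir27b and Mir3074-1 carry a newer gene version than in the counts, so that their boundaries there may differ. The gap between the first and the second hairpin is 79 bases on chromosome 8 and 154 on chromosome 13, and between the second and the third 56 and 423 bases.

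**Figure D1:**
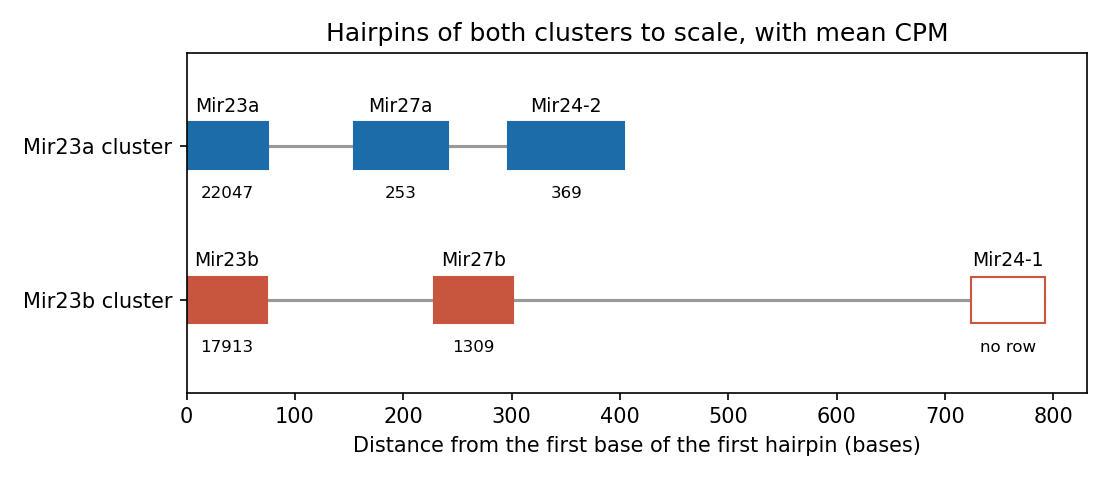
Hairpins of both clusters (boxes) drawn to scale along the distance in bases from the first base of the first hairpin, with the mean CPM (counts per 1000000 counts on miRNA genes) of both libraries under each. The order of the hairpins is the same in both clusters, the chromosome 13 cluster is longer (792 against 404 bases), and Mir24-1 (open box) has no row in the counts.

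Levels are counts on the strand of the gene per 1000000 such counts in the library (CPM). A count is a short read anywhere on the hairpin, whichever arm it is from, so no length scaling was applied, and a ratio between miRNAs is a ratio of counts that need not be one of amounts in the tissue. The libraries held 3439539 and 5833156 counts on miRNA genes in replicates 1 and 2, which makes 1 count worth 0.291 and 0.171 CPM. Multiply matching reads, which are in no gene count, made up 33.0% and 30.1% of all reads. As a check of the tissue label, the heart muscle markers summed to 62461 and 45595 CPM, of which Mir208b alone had 53878 and 37837 CPM. Of the 7 counted ones, 4 had 10 or more counts in both libraries and 0 were at 0, with Mir133a-1 at only 5 and 7 counts. The neural markers summed to 44.5 and 235.7 CPM, of which Mir137 had 44.2 and 234.2 CPM. Of these markers 4 of 6 were at 0 in both libraries, beside 1286 of all 1973 genes. Whether the genes at 0 lost reads to multiple matches was not tested, so these zeros are no check of the tissue. The epithelium markers, however, summed to 1821 and 6297 CPM, and 7 of 7 were detected. The labels name the pools as biological replicates, and p-values between them describe these libraries only.

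Mir23a and Mir23b supplied nearly all counts on the counted members. These counts hold nothing for Mir24-1 and no read of exactly the mature arm that both Mir24 hairpins carry whole. Such reads match both hairpins and are in no gene count, and their number was not tested. The shares below therefore do not give the part of Mir24 products in the heart. Mir23a had 70720 counts (20561 CPM) in replicate 1 and 137272 counts (23533 CPM) in replicate 2, a mean of 22047 ± 2102 CPM (SD, n = 2). Mir23b had 54247 counts (15772 CPM) and 116976 counts (20054 CPM), a mean of 17913 ± 3028 CPM. Both lay among the 16 highest of all 1973 genes in each library, at mean ranks 12 and 13. The values of the pair did not overlap across the libraries, although Mir23b in replicate 2 came close to Mir23a in replicate 1. Together the pair made up 95.2% of the counts on counted members in replicate 1, with a 95% interval (exact binomial) from 95.1% to 95.3%. In replicate 2 the share was 95.6%, between 95.5% and 95.6%. Intervals cover counting error only, since the files carry no molecular identifiers.

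Mir27b and Mir27a, which give the other miRNAs with a nearly common seed, were much lower. Mir27b had 4254 counts (1237 CPM) in replicate 1 and 8054 counts (1381 CPM) in replicate 2, a mean of 1309 ± 102 CPM (n = 2) and rank 74. Mir27a had 792 counts (230.3 CPM, interval 214.5 to 246.9) and 1604 counts (275 CPM, interval 261.7 to 288.8), a mean of 253 ± 31.6 CPM and rank 135. Mir27b exceeded Mir27a in both libraries, with no overlap. Both Mir27 genes together had 3.84% and 3.63% of the counts on counted members.

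Mir24-2 had 1257 counts (365.5 CPM, interval 345.5 to 386.2) in replicate 1 and 2171 counts (372.2 CPM, interval 356.7 to 388.2) in replicate 2. Its mean of 369 ± 4.76 CPM (n = 2), stood at rank 113. Reads of exactly the mature arm that Mir24-2 shares whole with Mir24-1 are in no gene count, so the level of Mir24-2 leaves them out. On the CPM scale the intervals of the libraries overlap, while after TMM scaling the libraries differed in Mir24-2 by 0.15 on the log2 scale. The order Mir23a, Mir23b, Mir27b, Mir24-2, Mir27a from high to low was the same in both libraries.

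**Figure D2:**
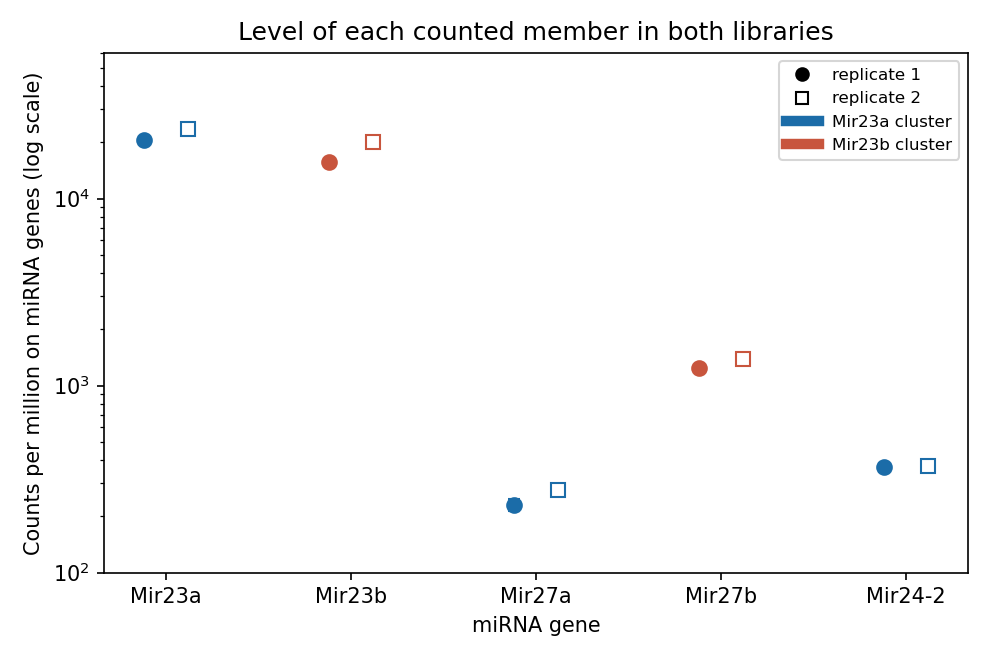
CPM (log axis) of the 5 counted members in replicate 1 (filled circles) and replicate 2 (open squares), with exact binomial 95% intervals that are mostly smaller than the symbols. Mir23a and Mir23b lie between 15772 and 23533 CPM, Mir27b near 1309, Mir24-2 near 369 and Mir27a near 253.

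The genes of other families next to each member in the order of mean level were mostly not separated from it in both libraries. Mir351 (20265 and 23893 CPM in replicates 1 and 2) stood just above Mir23a by mean and was below it in replicate 1. Mir130a (17596 and 17814 CPM) stood just below Mir23b by mean and was above it in replicate 1. Mir101b (1301 and 1317 CPM) and Mir1983 (1082 and 1485 CPM) enclosed Mir27b. Mir195a (378.2 and 352.6 CPM) enclosed the values of Mir24-2, whereas Mir185 (388.4 and 415.9 CPM) lay above Mir24-2 in both. Around Mir27a lay Mir29a (243.1 and 263.8 CPM) and Mir350 (281.1 and 221.1 CPM).

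The clusters had similar totals, but the paralogues within them did not divide in the same way. The counted members of the Mir23a cluster summed to 21157 and 24180 CPM in replicates 1 and 2 (22668 ± 2138, n = 2). Those of the Mir23b cluster summed to 17008 and 21434 CPM (19221 ± 3130), without any counts for Mir24-1. The log2 ratio of the first sum to the second was 0.24 ± 0.10. As a ratio of counts it was 1.24 in replicate 1 (95% interval 1.23 to 1.26) and 1.13 in replicate 2 (1.12 to 1.14).

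Mir23a exceeded Mir23b by 0.31 ± 0.11 on the log2 scale (n = 2). The ratio of counts was 1.30 in replicate 1 (95% interval 1.29 to 1.32) and 1.17 in replicate 2 (1.16 to 1.18). These intervals do not overlap, so the ratio of counts differed between the libraries beyond binomial counting error, on a measure that needs no scaling between them. The intervals take each read as independent, which could not be checked without molecular identifiers. The part of multiply matching reads in this difference was not tested. For Mir27 the chromosome 13 copy led: the log2 ratio of Mir27a to Mir27b was -2.38 ± 0.07. Mir27a had 0.186 counts per count of Mir27b in replicate 1 (interval 0.172 to 0.201) and 0.199 in replicate 2 (0.189 to 0.210), and here the intervals overlap. No test between genes was made over the 2 libraries, so these ratios are given with their intervals and their spread.

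Within the chromosome 8 cluster Mir23a held 97.2% and 97.3% of the counts in replicates 1 and 2, Mir24-2 1.73% and 1.54%, and Mir27a 1.09% and 1.14%. Mir23a had 89.3 counts per count of Mir27a in replicate 1 (interval 83.3 to 95.9) and 85.6 in replicate 2 (81.5 to 90.0), a log2 ratio of 6.45 ± 0.04. It had 56.3 and 63.2 counts per count of Mir24-2. Mir24-2 exceeded Mir27a by 0.55 ± 0.16 on the log2 scale. The share and ratios of Mir24-2 leave out reads of exactly the mature arm it shares whole with Mir24-1, which are in no gene count.

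Within the chromosome 13 cluster Mir23b held 92.7% and 93.6% of the counts and Mir27b 7.27% and 6.44%. Mir23b had 12.8 counts per count of Mir27b in replicate 1 (interval 12.4 to 13.2) and 14.5 in replicate 2 (14.2 to 14.9), a log2 ratio of 3.77 ± 0.13. The excess of Mir23 over Mir27 was thus 7.00 times as large on chromosome 8 as on chromosome 13 in replicate 1 (exact conditional 95% interval 6.48 to 7.57) and 5.89 times in replicate 2 (5.58 to 6.22). On the log2 scale this difference was 2.68 ± 0.18 (n = 2), larger than its spread between the libraries. The part of multiply matching reads in this difference was not tested.

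Unequal counts of neighbouring hairpins were common elsewhere. Among 88 other pairs of neighbouring hairpins (same strand, starts within 10 kb, at least 10 counts in both libraries), the median size of the log2 ratio was 3.01, with a range of 0.05 to 10.30. The ratio of Mir23a to Mir27a (6.45) was exceeded by 9.09% of these pairs, that of Mir23b to Mir27b (3.77) by 37.5%, and that between Mir27a and Mir24-2 (0.55) by 86.4%. Between the libraries the log2 ratio moved by 0.06 for Mir23a to Mir27a, 0.19 for Mir23b to Mir27b and 0.23 for Mir27a to Mir24-2, beside a median of 0.20 over the other pairs. This is a description, since pairs of one cluster share hairpins. The other pairs include hairpins that share long stretches with a hairpin elsewhere. In the pair with the highest ratio, Mir20a and Mir19b-1, Mir19b-1 shares 25 bases with Mir19b-2. Multiply matching reads are in no gene count, and their part in the ratios of these pairs was not tested.

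**Figure D3:**
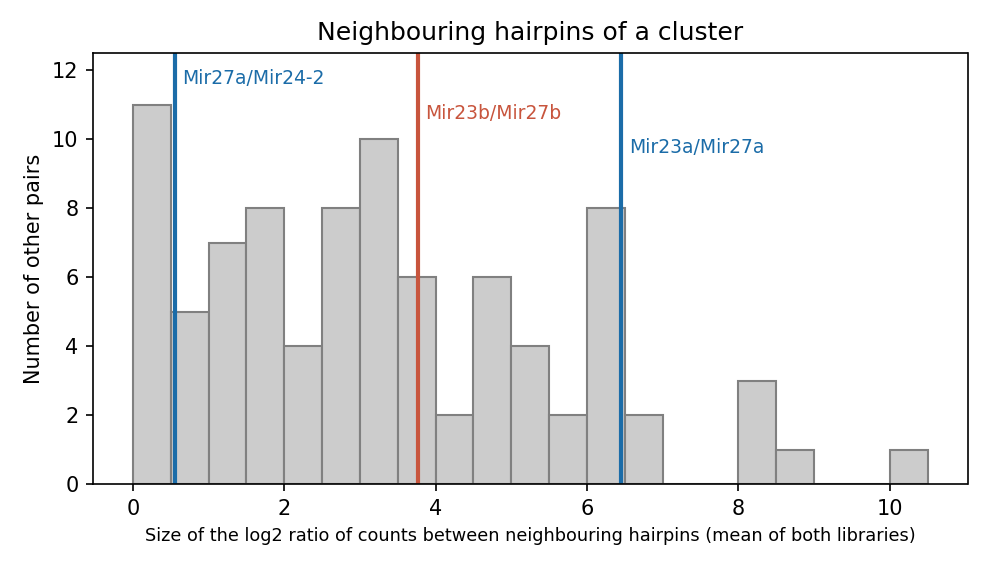
Histogram of the size of the log2 ratio of counts between neighbouring hairpins for 88 other pairs (grey), with the pairs of the Mir23a cluster (blue lines) and the Mir23b cluster (red line). The pair Mir23a and Mir27a lies at 6.45 in the upper part of the distribution, Mir23b and Mir27b at 3.77 and Mir27a and Mir24-2 at 0.55.

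The level of the members was also set beside the longest stretch that each hairpin shares with a hairpin at another place, over 286 of the 327 detected genes (at least 10 counts in both libraries) that had a RefSeq hairpin. The 4 counted Mir23 and Mir27 members all shared 20 bases, yet ran from 253 to 22047 CPM. The 7 other detected genes that shared 20 bases had a median of 186.7 CPM, and the highest, Mir487b, had 5560 CPM. Mir23a and Mir23b thus had the highest counts of the genes with this length of shared sequence. Mir24-2 shared 28 bases, and the 20 other genes with 25 or more had a median of 49.7 CPM and at most 949 CPM. Of the 777 counted genes with no arm found whole in another hairpin 31.7% were detected, of the 49 with some such arm, Mir24-2 among them, 63.3%, and of the 32 with every arm so found 18.8%. The median level of the detected genes was 159.8, 51.8 and 70.4 CPM in the same order, so it was highest where no arm was shared. How many reads of each member were lost to multiple matches was not tested, because the counts of multiply matching reads are given for the library as a whole.

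**Figure D4:**
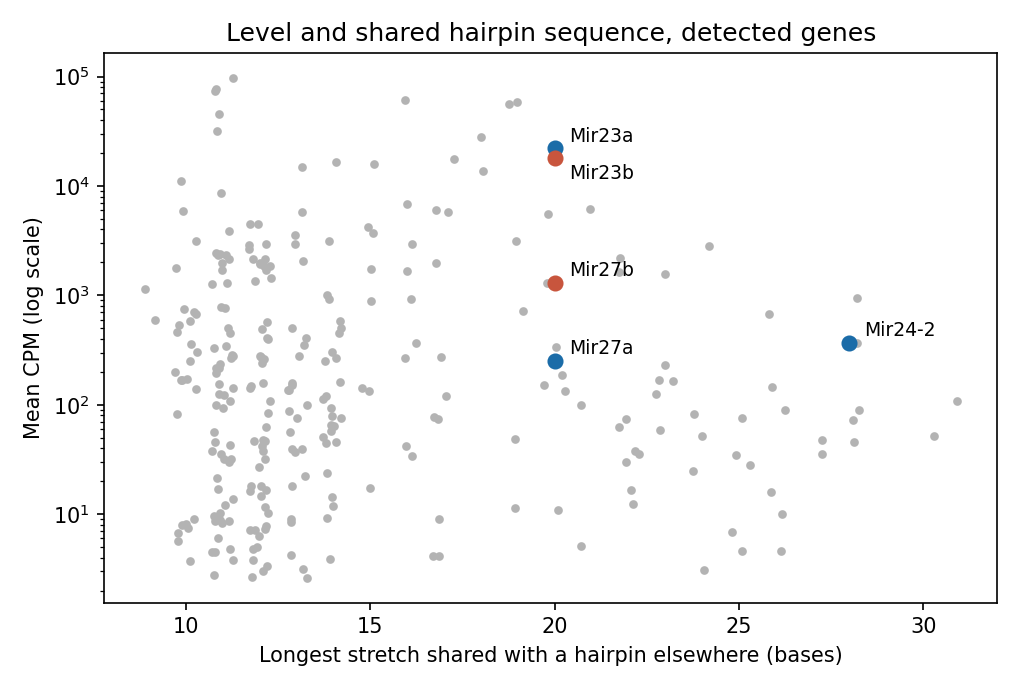
Mean CPM (log axis) against the longest stretch in bases shared with a hairpin at another place, for 286 detected genes, with the members coloured and the others grey (with a small random shift along the length axis). Mir23a, Mir23b, Mir27b and Mir27a stand at 20 bases between 22047 and 253 CPM, and Mir24-2 at 28 bases.

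The pools were compared gene by gene with counting noise at library sizes scaled by TMM, the trimmed mean of M values. In this comparison 192 of 413 tested genes (46.5%) passed an adjusted p of 0.05 by the exact conditional binomial test, 21.8% higher in replicate 1 and 24.7% higher in replicate 2. Of the 5 counted members 1 was called higher in replicate 1 and 2 higher in replicate 2, a share near that background. The sets differ in depth, with a median of 1309 CPM over the members and 72.5 CPM over all tested genes. A test against counting noise calls smaller differences at higher counts, so the shares are not of like genes. The median size of the log2 difference was 0.08 over the members and 0.20 over the 183 tested genes with at least 100 CPM, of which 104 differed by more than any member.

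Mir23b differed most by TMM and by total counts, though not with DESeq2 size factors, where Mir24-2 did. By TMM it had a log2 ratio of replicate 1 to replicate 2 of -0.17 (counting SE 0.007, adjusted p = 3.69e-119, exact binomial test). Mir23b stayed lower in replicate 1 with total counts (-0.35), by which 49.2% of the tested genes were called, and with DESeq2 size factors (-0.13), by which 45.5% were. Mir23a had -0.02 (adjusted p = 3.09e-03, exact binomial test) by TMM, was called in the opposite direction with DESeq2 size factors (0.02) and had -0.19 with total counts, so no direction is given for it. Mir24-2 was called higher in replicate 1 by TMM (0.15, adjusted p = 1.16e-02, exact binomial test) and with DESeq2 size factors (0.19), but had -0.03 with total counts. Mir27a (-0.08) and Mir27b (0.01) did not pass by TMM, nor with DESeq2 size factors (-0.04 and 0.05). With total counts both were called higher in replicate 2 (-0.26 and -0.16). With edgeR's exact test at the common dispersion of the libraries 0 of 5 members were called, and 0 had an unadjusted p under 0.05. Of all tested genes 1.69% were called. That dispersion (0.0896) was estimated from the same 2 libraries taken as 1 group. It thus contains the difference under test, and no conclusion is drawn from the lack of calls.

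**Figure D5:**
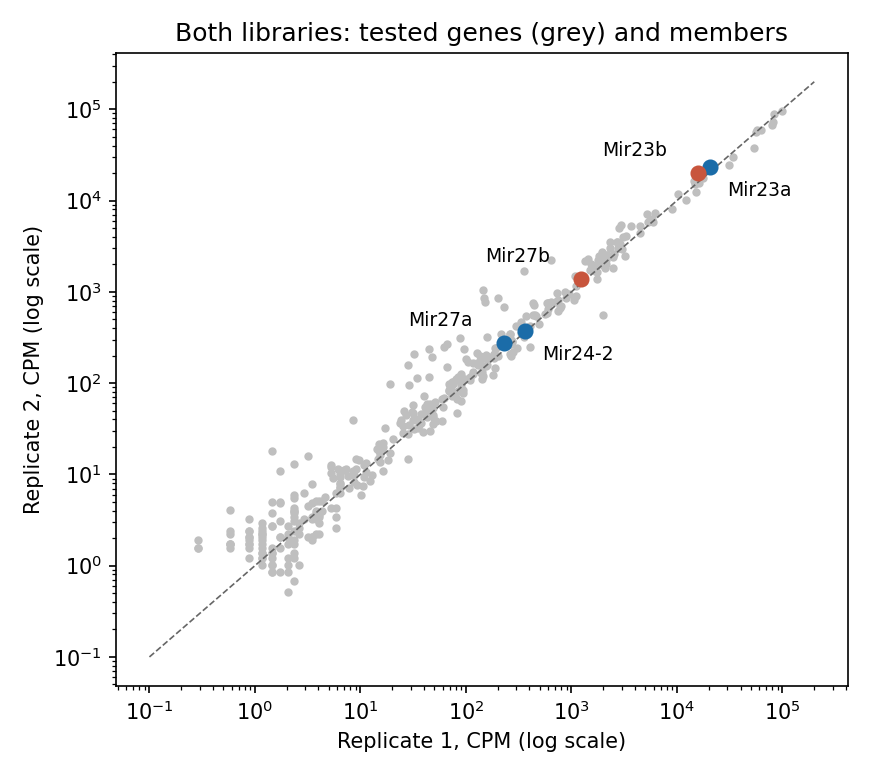
CPM in replicate 1 against replicate 2 (log axes) for the 409 tested genes with counts in both libraries, the members coloured and the others grey; the dashed line marks equal values. On this unscaled CPM axis all 5 members lie on the side of replicate 2, with Mir23b at a log2 ratio of -0.35 and Mir24-2 at -0.03.

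Other miRNAs of the vessel wall, in a list of 22 genes, were counted in the same libraries. Of these, 18 had a row under the listed symbol and were detected, with a median of 1380 CPM, beside 1309 CPM over the counted members. The listed Mir18a, Mir92a-1 and Mir92a-2 are Mir18, Mir92-1 and Mir92-2 in the annotation used here and are missing from the list's values. In replicates 1 and 2, Mir18 had 1771 and 2213 CPM, Mir92-1 1508 and 1748 CPM, and Mir92-2 29.1 and 95.7 CPM. Of these, Mir18 and Mir92-2 were called higher in replicate 2. Mir143, of smooth muscle (82454 and 88393 CPM in replicates 1 and 2), and Mir126a, of endothelium (79217 and 67775 CPM), led the list and stood above Mir23a in both libraries. Mir145a, also listed for smooth muscle, had only 1110 and 898.7 CPM, below Mir27b in both. Mir221 (68.9 and 98.1 CPM) and Mir222 (25.9 and 50.1 CPM), which act in vascular smooth muscle and endothelium, were below every counted member. Between the pools 8 of the 18 were called higher in replicate 1 and 5 higher in replicate 2 by the same binomial test, beside 21.8% and 24.7% of all tested genes, with a median log2 ratio of 0.00, against -0.02 over the members and -0.04 over all 413 tested genes.

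Mir3074-1 and Mir3074-2 are annotated opposite Mir24-1 and Mir24-2. Of miR-3074-5p, 20 of 22 bases are complementary to miR-24-3p. Mir3074-2 had no row in the counts. The row of Mir3074-1 (ENSMUSG00000092741.1, chr13:63301199-63301283) held 167 counts (48.6 CPM) in replicate 1 and 315 counts (54.0 CPM) in replicate 2 on its own strand, 51.3 ± 3.85 CPM (n = 2). The counts opposite Mir24-2, where Mir3074-2 lies, were 1 and 3, at or under the 3 counts that an observed 0 allows. Mir23a, Mir27a, Mir23b and Mir27b had 0 counts on the opposite strand in both libraries, which allows levels of up to 0.872 and 0.514 CPM in the first and the second library. Counts near these hairpins were thus almost all on the strand of the miRNA gene, apart from the row of Mir3074-1.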

How the data were processed

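Small RNA from both pools of hearts was counted per miRNA gene by the authors, in 1 file per library. The deposited values are raw, whole read counts in 3 columns (either strand, the gene's strand, the opposite strand, by their values), of which the gene's strand was used. The assembly was mm10 and the annotation GENCODE M4, as the deposited description files state. Which aligner, trimmer and counter were used is not given in the sources used here. Lines that name no gene stayed out of the totals. Symbols and positions came from GENCODE M21, which matched 1894 of 1973 IDs, and sequences from RefSeq GRCm38.p6.

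CPM, exact binomial intervals and ratios were computed in Python 3.11.15 with scipy 1.17.1. Genes with at least 10 summed counts were compared between libraries with an exact conditional binomial test (two-sided) at TMM sizes (edgeR 4.0.16, R 4.3.3) with Benjamini-Hochberg adjustment over all 413. This test, tested on simulated data, holds no spread between pools. Alternatives were total counts, DESeq2 1.42.0 size factors, no minimum, and edgeR's exact test. Hairpins were aligned globally in Biopython 1.88. The rule for named genes took every member, the hairpins opposite them, and the neighbours of each member in mean level. Members of lists are named as examples. Members and lists were chosen with earlier results of these data known.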

Additional observations from a re-analysis of the deposited data

Results flagged for a closer look

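The column of counts opposite the annotated strand, which entered no level above, held 95 counts in replicate 1 and 210 counts in replicate 2 in the row of Mir3074-1. It was flagged because these exceed the 3 counts that an observed 0 allows. On the CPM scale they are 27.6 and 36.0, or 31.8 ± 5.93 (n = 2). That strand is the one of Mir24-1, whose 68 bases lie wholly inside Mir3074-1 in the annotation used here, a later release with a newer version of Mir3074-1 than the counts. The boundaries in the release used for counting were not analysed here. Whether these reads are from Mir24-1 was not tested.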

How the results depend on the processing

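Apart from leaving out a replicate, 46 values were computed under alternatives. Of these 32 kept their direction and moved by less than the spread between the libraries (or, for counts of genes, by no more than 1.5 times), and 14 moved further. Per 1000000 of all reads, the cluster sums were 11165 (Mir23a cluster) and 9472 (Mir23b cluster), since under 50% of reads are counted on miRNA genes. Members called higher in replicate 1 numbered 0 with total counts, 2 with DESeq2 size factors and 0 with edgeR's exact test, and those called higher in replicate 2 numbered 4, 1 and 0, beside 49.2%, 45.5% and 1.69% of all tested genes called in either direction. Leaving out a replicate, which with 2 libraries only returns the value of the other, gave 21157 to 24180 CPM for the Mir23a cluster, 17008 to 21434 for the Mir23b cluster, and log2 ratios of 0.17 to 0.32 between the clusters. Alternatives chosen after seeing the data gave 0.24 with the counts opposite Mir3074-1 added to the Mir23b cluster and 0.22 without Mir24-2. The planned ratio of Mir24-2 to Mir24-1 was not run because Mir24-1 has no row. No paired analysis was possible because the study holds 1 group. Mir27a, with 792 counts in replicate 1, has the widest relative interval of the members. The 2 pools do not give the spread between embryos.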
